A study of Caenorhabditis elegans with 18 samples.

Results

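The ALG-3/4 class of 26G-RNAs is a set of small interfering RNAs that the annotation of the small RNA table assigns to 1399 loci, out of 25899 features in all. The loci were taken by that class label alone, each was joined by its gene ID to the 22G-RNAs of the same gene, listed as ALG targets, and all 1399 were found in the mRNA table of 29970 genes. Small RNA and mRNA were sequenced from whole gravid hermaphrodites of *Caenorhabditis elegans* in 3 genotypes: *tcer-1(tm1452)*, a deletion allele in strain CF2166, *tcer-1(glm27)*, a CRISPR deletion of the whole gene in strain AGP278, and the wildtype strain N2. Each genotype had 3 biological replicates for either kind of RNA, 18 libraries in all, and the animals of all groups carried no other listed allele. They were collected 72 h after synchronized L1 larvae had been placed on *E. coli* OP50 at 20 °C. The *tcer-1(tm1452)* strain is described by the study as developmentally asynchronous and *tcer-1(glm27)* as not, which limits the first as a model of adults of 1 age. Because whole animals were used, more cells of a type and more RNA per cell cannot be told apart in any value below.

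26G-RNAs are made antisense to mRNAs by the RNA-dependent RNA polymerase RRF-3 together with Dicer and the ERI proteins. In the germline that makes sperm they are bound by the Argonautes ALG-3 and ALG-4, and in oocytes and embryos a separate class is bound by ERGO-1. The transcripts they pair with become templates for secondary 22G-RNAs, which are loaded into WAGO proteins or CSR-1. A *C. elegans* hermaphrodite makes its sperm late in larval life and then makes oocytes for the rest of its fertile period, so genes of sperm formation are normally little expressed in the gravid adult.

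The class holds many genes of sperm formation, and the stretches upstream of a few members are shown because a short word recurs in them. Windows of 250 bases upstream of the annotated gene start were read from the RefSeq genome sequence of build WBcel235 with Ensembl gene starts. All 6 windows belong to genes whose values are given below, and the last, which holds neither word, is shown for contrast. They are written on the strand of the gene, with 2 words in capitals where they occur on either strand. The first word searched was ACGTG, which reads CACGT on the opposite strand. The second word searched was GATAA, which on the opposite strand reads TTATC, and words that overlap form 1 run of capitals.
smz-1 (chrIV:12454800-12455049, plus strand): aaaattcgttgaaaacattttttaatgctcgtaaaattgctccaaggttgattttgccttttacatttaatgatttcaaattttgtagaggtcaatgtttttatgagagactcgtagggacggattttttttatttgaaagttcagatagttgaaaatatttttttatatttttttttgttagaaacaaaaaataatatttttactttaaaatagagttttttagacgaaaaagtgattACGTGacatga
ssp-34 (chrIV:10738603-10738852, minus strand): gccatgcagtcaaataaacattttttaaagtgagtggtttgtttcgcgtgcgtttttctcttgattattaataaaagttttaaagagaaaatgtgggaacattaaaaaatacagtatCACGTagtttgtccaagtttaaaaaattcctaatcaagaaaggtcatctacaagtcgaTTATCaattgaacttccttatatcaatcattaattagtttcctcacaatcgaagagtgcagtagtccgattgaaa
ZK930.4 (chrII:11906267-11906516, plus strand): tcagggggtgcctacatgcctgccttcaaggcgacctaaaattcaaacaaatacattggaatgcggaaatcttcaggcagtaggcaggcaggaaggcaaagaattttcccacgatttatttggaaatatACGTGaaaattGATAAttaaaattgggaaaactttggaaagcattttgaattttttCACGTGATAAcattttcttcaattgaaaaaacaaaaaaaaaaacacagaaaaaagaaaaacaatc
C49C8.1 (chrIV:8654328-8654577, plus strand): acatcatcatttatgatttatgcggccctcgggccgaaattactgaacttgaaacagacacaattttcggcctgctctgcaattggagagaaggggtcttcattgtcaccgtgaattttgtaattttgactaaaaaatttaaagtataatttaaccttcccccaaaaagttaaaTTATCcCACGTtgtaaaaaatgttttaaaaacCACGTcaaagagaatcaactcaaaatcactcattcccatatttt
alg-3 (chrIV:11703996-11704245, plus strand): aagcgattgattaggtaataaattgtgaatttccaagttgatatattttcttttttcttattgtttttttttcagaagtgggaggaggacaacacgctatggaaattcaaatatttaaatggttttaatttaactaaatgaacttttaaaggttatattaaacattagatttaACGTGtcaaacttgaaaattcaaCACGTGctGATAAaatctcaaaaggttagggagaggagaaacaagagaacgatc
F59A6.2 (chrII:5014449-5014698, plus strand): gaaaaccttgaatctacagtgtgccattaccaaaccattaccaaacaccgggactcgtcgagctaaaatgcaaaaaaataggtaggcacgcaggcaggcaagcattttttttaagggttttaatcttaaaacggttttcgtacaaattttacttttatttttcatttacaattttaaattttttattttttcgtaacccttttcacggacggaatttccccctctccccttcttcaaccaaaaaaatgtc
These words were chosen after the values were seen and are a description, not binding sites. ACGTG was found in 58.98% of the windows of 1392 members on the nuclear chromosomes, against 23.7% of the windows of 19973 protein-coding genes. GATAA was found in 57.5% of the member windows and in 52.2% of all windows. The mean GC content was 31.8% in the member windows and 33.8% in all windows.

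The 1399 loci comprised 1388 protein-coding genes and 11 pseudogenes. Chromosome IV held 345 of them, 24.7% of the class against 16.4% of protein-coding genes, and chromosome I held 315 (22.5% against 14.4%). A single member lay on the X chromosome, 0.0715% of the class against 13.7% of protein-coding genes. The members had a median exonic length of 1131 bases, close to the 1161 bases of all protein-coding genes. Of the major sperm protein genes (*msp*, which encode the cytoskeletal protein of the crawling sperm), 22 of 31 were members, as were 19 of 29 *spe* genes (found through sterile mutants with defective sperm), 11 of 12 *ssp* genes (sperm-specific proteins), 9 of 10 *nspd* genes and all 3 *spch* genes (sperm chromatin proteins). The class also held housekeeping genes, among them 9 of 13 *rpn*, 4 of 6 *rpt*, 6 of 7 *pas* and 6 of 7 *pbs* genes of the proteasome. 7 members were mitochondrial genes, and their 26G-RNAs were listed at 0 in all 9 libraries.

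Many members belong to other small RNA classes as well. Of the 1399, 291 were also listed as producing CSR class 22G-RNAs, 68 as producing WAGO class 22G-RNAs, 1 as both, and 1039 (74.3%) as neither. CSR-1 is the Argonaute that protects genes expressed in the germline, and WAGO proteins silence their targets. None of the genes was also an ERGO class locus. The 22G-RNA values of members that belong to the CSR or WAGO class are the same values as those listed under these classes, so they do not measure a separate population.

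The small RNA values are RPM, reads scaled to a fixed library total, and the mRNA values are normalized counts, that is, estimated counts divided by a size factor of the library. The small RNA libraries held an estimated 12900000 to 16028000 reads, so 1 read was worth 0.0624 to 0.0775 RPM, and the mRNA libraries summed to 22491300 to 23722000 normalized counts. *tcer-1* mRNA was at 959, 862 and 1026 normalized counts in *tcer-1(tm1452)* and at 529, 496 and 470.0 in *tcer-1(glm27)*, against 5877, 6034 and 6346 in wildtype, so it was lower in both mutants but not at 0 in the whole-gene deletion. The third *tcer-1(tm1452)* small RNA library stood apart, with 15470.2 RPM of piRNA against 32889 and 33437 RPM in the other libraries of its group. The main ratios of sums to wildtype and the counts of calls are given without it as well.

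26G-RNAs of the class were most abundant in *tcer-1(tm1452)*, intermediate in *tcer-1(glm27)* and least abundant in wildtype, and the 3 groups did not overlap. Summed over the 1399 loci they came to 1247, 1400.3 and 1732 RPM in *tcer-1(tm1452)*, to 296, 309.7 and 259 RPM in *tcer-1(glm27)* and to 49.1, 53.4 and 65.8 RPM in wildtype. The third *tcer-1(tm1452)* library was the highest of all. The mean sum was 1460 ± 248 RPM in *tcer-1(tm1452)*, 288 ± 25.99 RPM in *tcer-1(glm27)* and 56.1 ± 8.67 RPM in wildtype (SD, n = 3 each), which is 26.02 times the wildtype mean in *tcer-1(tm1452)* and 5.14 times in *tcer-1(glm27)*. Without the third *tcer-1(tm1452)* library the first ratio was 23.6. The sum in *tcer-1(tm1452)* was 5.06 times that in *tcer-1(glm27)*. With 3 libraries against 3, an exact two-sided permutation test cannot give a p below 0.10, so no test of these sums is given.

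The depth behind these sums differs between the groups. They correspond to an estimated 18546 to 27766 reads per library in *tcer-1(tm1452)*, 3815 to 4834 in *tcer-1(glm27)* and 694 to 851 in wildtype. Between 1213 and 1255 of the 1399 loci had a value above 0 in *tcer-1(tm1452)* libraries, 911 to 1025 in *tcer-1(glm27)* and 422 to 496 in wildtype. The median locus was at 0.43 RPM in *tcer-1(tm1452)*, 0.0933 RPM in *tcer-1(glm27)* and 0.0233 RPM in wildtype, so for most loci a wildtype library holds 1 read or none. The sum was spread over many loci: the largest 139 loci held 50% of it in *tcer-1(tm1452)*, 157 in *tcer-1(glm27)* and 127 in wildtype.

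The other class of 26G-RNAs did not move with these. The 123 ERGO class loci summed to 92.7, 96.8 and 62.4 RPM in *tcer-1(tm1452)*, 296, 213 and 187 RPM in *tcer-1(glm27)* and 212, 193 and 236 RPM in wildtype. Their mean in *tcer-1(tm1452)* was 0.392 times wildtype, or 0.443 without the third *tcer-1(tm1452)* library, with no overlap. In *tcer-1(glm27)* it was 1.08 times wildtype, with overlapping libraries. ALG-3/4 class 26G-RNAs were therefore 17.4 times as abundant as the ERGO class in *tcer-1(tm1452)*, 1.24 times in *tcer-1(glm27)* and 0.262 times in wildtype. The third *tcer-1(tm1452)* library was the highest of its group for the ALG-3/4 class and the lowest for the ERGO class, so it raises the 17.4. Without it the *tcer-1(tm1452)* means were 1323 RPM for the ALG-3/4 class and 94.75 RPM for the ERGO class.

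**Figure D1:**
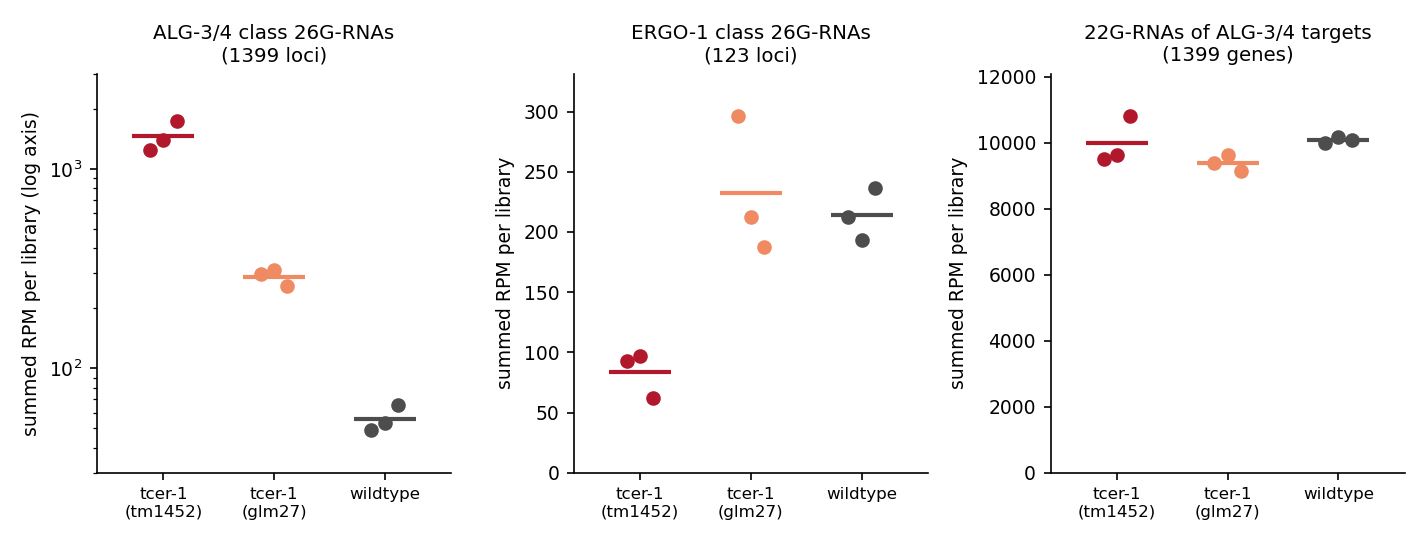
Summed small RNA levels in RPM per library (points) with group means (bars), for *tcer-1(tm1452)*, *tcer-1(glm27)* and wildtype, in panels for ALG class 26G-RNAs (log axis), ERGO class 26G-RNAs and the 22G-RNAs of ALG targets (linear axes from 0). The ALG class sums separate into 3 levels with means of 1460, 288 and 56.1 RPM, while the 22G-RNA sums of the same genes lie between 9141 and 10801 RPM in all libraries.

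At single loci, only the most abundant were tested in the main setting. Loci were compared with limma on log2(RPM + 1), fitted over all 9 libraries and every small RNA feature whose mean reached 2 RPM, and a locus was called where the Benjamini-Hochberg adjusted p was under 0.05 and the change at least 2-fold. All fold changes below are on this scale, which understates changes of low values. 45 of the 1399 loci passed the filter on the mean, 40 of them only through *tcer-1(tm1452)*, so these 45 were bound to be high there and their count is a description. All 45 were called higher in *tcer-1(tm1452)* than in wildtype, where 4.58% of all features tested were called higher, and 14 were called higher in *tcer-1(glm27)* than in wildtype, where the figure for all features was 2.2%. Of the 14, 9 passed the filter only through *tcer-1(tm1452)*, so that count is a description too. None of the 45 was called lower in either allele, where 10.6% of all features were called lower in *tcer-1(tm1452)* mutants and 8.65% in *tcer-1(glm27)*. Only 1 of the 45 had a wildtype mean of at least 2 RPM. The filter thus left little room for a lower call, and their absence is a description as well. With a pseudocount of 5 in place of 1, the 14 became 0 and the 45 became 38, and without the third *tcer-1(tm1452)* library 25 loci passed the filter and all 25 were called. Just inside the filter were F57B9.8 at 2.06, T27E7.1 at 2.05 and *kin-26* at 2.03 RPM, and just outside it were F36A2.10 at 1.998, *ssp-31* at 1.99 and Y39E4B.13 at 1.98 RPM.

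The loci that did not pass had a similar ratio. The 1354 untested loci summed to 1060 ± 151 RPM in *tcer-1(tm1452)*, 221 ± 19.0 RPM in *tcer-1(glm27)* and 42.4 ± 7.39 RPM in wildtype, ratios to wildtype of 24.98 and 5.20, where the 45 tested loci had 29.2 and 4.95. Over all 1399 loci, 1038 had higher values in all 3 *tcer-1(tm1452)* libraries than in any wildtype library and 2 had lower ones, while 14.6% of all small RNA features with any value were higher in this way and 26.2% were lower. In *tcer-1(glm27)*, 486 were higher than every wildtype library and 1 was lower (9.3% and 29.4% of all features). Between the alleles, 894 loci were higher in all 3 *tcer-1(tm1452)* libraries and 3 were lower (19.2% and 8.52% of all features). 36 loci were at 0 in every library.

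The highest 26G-RNA locus in each genotype was *spch-1*, which encodes a basic protein of sperm chromatin. Its 26G-RNAs were at 29.1, 28.9 and 44.1 RPM in *tcer-1(tm1452)*, 7.09, 6.12 and 6.09 RPM in *tcer-1(glm27)* and 1.77, 2.64 and 2.45 RPM in wildtype. The 3 genotypes did not overlap, with log2 fold changes against wildtype of 3.40 ± 0.18 (SE, limma adjusted p = 1.01e-06) in *tcer-1(tm1452)* and 1.18 ± 0.18 (adjusted p = 6.20e-04) in *tcer-1(glm27)*. The same gene had more 22G-RNAs, 22.1, 21.45 and 27.96 RPM in *tcer-1(tm1452)* mutants and 8.38, 7.04 and 6.22 RPM in *tcer-1(glm27)* against 1.74, 2.37 and 3.24 RPM in wildtype. Its mRNA followed the same order, with 621, 654 and 667 normalized counts in *tcer-1(tm1452)* mutants and 127, 157 and 135 in *tcer-1(glm27)* against 14.9, 19.9 and 23.9 in wildtype. For *spch-1* all 3 measures were thus called higher in both alleles. Only 4.32% of the 26-base words in its exons occur elsewhere in the genome. For the related *spch-2* and *spch-3* the shares were 68.1% and 65.7%, so 26G-RNAs of these related genes may be divided between copies.

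*smz-1*, a sperm protein with PDZ domains, and *ssp-34*, a sperm-specific protein, showed the same order. *smz-1* 26G-RNAs were at 11.3, 10.2 and 9.73 RPM in *tcer-1(tm1452)*, 2.24, 1.79 and 1.76 RPM in *tcer-1(glm27)* and 0.35, 0.42 and 0.62 RPM in wildtype. *ssp-34* 26G-RNAs were at 13.8, 13.6 and 16.6 RPM in *tcer-1(tm1452)*, 2.32, 2.75 and 1.89 RPM in *tcer-1(glm27)* and 0.64, 0.42 and 0.46 RPM in wildtype. Neither gene had libraries of different genotypes that overlapped. The other 11 loci called in both alleles were C38C10.3, D1081.5, *mpz-5*, *dlc-6*, WBGene00013979, ZK666.8, ZK930.4, C49C8.1, F59A6.2, C25D7.16 and T27C10.8. ZK930.4, whose window above holds ACGTG at 2 sites, 1 of them within CACGTG, which reads alike on both strands, was at 14.5, 15.8 and 21.4 RPM in *tcer-1(tm1452)*, 2.79, 3.65 and 2.23 RPM in *tcer-1(glm27)* and 0.14, 0.28 and 0.77 RPM in wildtype. C49C8.1 was at 7.72, 8.89 and 9.42 RPM in *tcer-1(tm1452)*, 1.24, 2.05 and 1.96 RPM in *tcer-1(glm27)* and 0.42, 0.21 and 0.39 RPM in wildtype. These loci kept the same order of genotypes with no overlap. F59A6.2, whose window holds neither word, was at 7.92, 8.69 and 10.5 RPM in *tcer-1(tm1452)*, 1.78, 1.73 and 1.96 RPM in *tcer-1(glm27)* and 0.35, 0.35 and 0.46 RPM in wildtype, so a locus of this kind was found without either word.

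**Figure D2:**
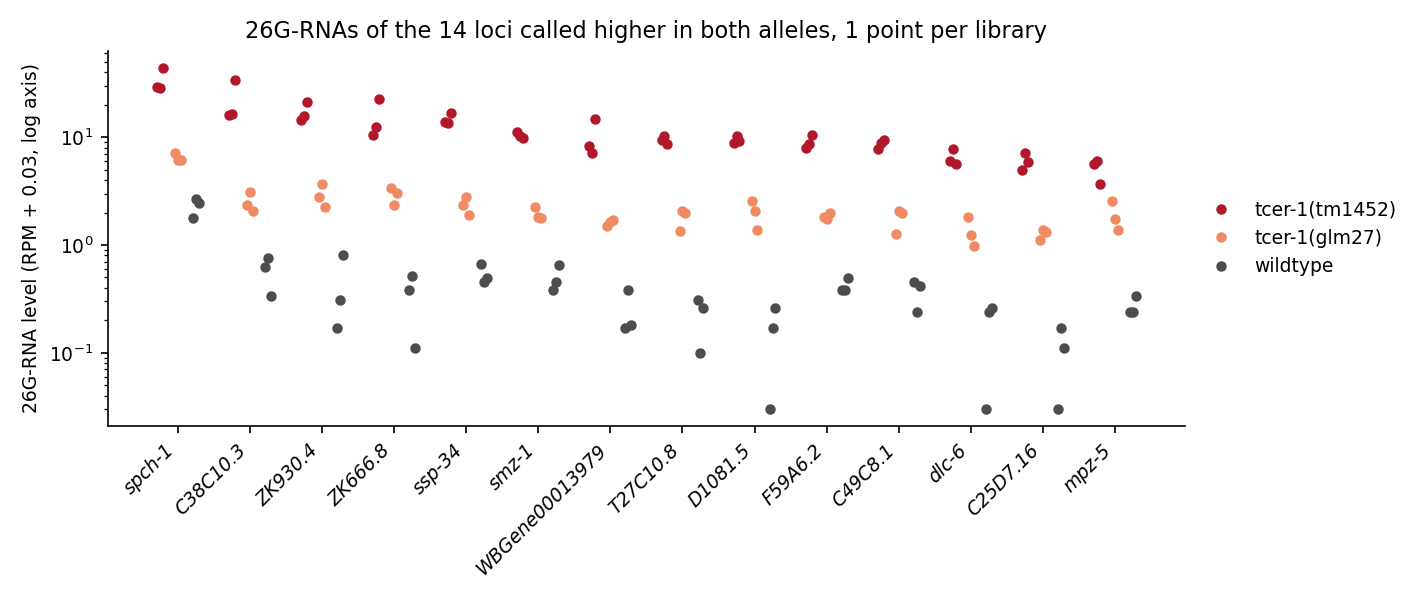
26G-RNA levels of the 14 loci called higher in both alleles, each point 1 library of *tcer-1(tm1452)*, *tcer-1(glm27)* or wildtype, on a log axis of RPM after adding 0.03. At each locus the 3 *tcer-1(tm1452)* libraries lie above the *tcer-1(glm27)* libraries, and these above wildtype; *spch-1* is the highest, at 28.9 to 44.1 RPM in *tcer-1(tm1452)*.

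Most mRNAs of the class were called higher in each mutant, and these included most of the sperm genes. Their summed level did not follow. The mRNAs of all members came to 3352110 to 3462020 normalized counts in *tcer-1(tm1452)*, 2986720 to 3005500 in *tcer-1(glm27)* and 3285490 to 3415070 in wildtype. The ratios of the means to wildtype were 1.01 and 0.889. The 852 members called higher in *tcer-1(tm1452)* held only 1.40 to 1.60% of this sum in wildtype. Of 1399 members, 1380 passed the filter on the mean, 16 of them only through *tcer-1(tm1452)*. In *tcer-1(tm1452)*, 852 were called higher than in wildtype and 6 lower, where 20.2% of all genes tested were called higher and 7.51% lower. In *tcer-1(glm27)*, 734 were called higher and 4 lower, against 14.5% and 2.07% of all genes tested. The median log2 fold change of the members was 2.90 in *tcer-1(tm1452)* mutants and 1.32 in *tcer-1(glm27)*, while the medians over all genes tested were 0.02 and 0.13. 731 members were higher in both alleles, 121 were called higher in *tcer-1(tm1452)* alone and 3 in *tcer-1(glm27)* alone, and T05G5.4 was the single member called lower in both. The share of all genes called higher in both alleles was not computed and cannot exceed the 14.5% of *tcer-1(glm27)*. Among the 1133 members with a mean of at least 2 normalized counts in every genotype, 606 were called higher in *tcer-1(tm1452)* mutants and 514 in *tcer-1(glm27)*. No share of all genes was computed under this limit. By library, 980 of the 1399 mRNAs were higher in all 3 *tcer-1(tm1452)* libraries than in any wildtype library and 296 lower, against 30.8% and 29.3% of all genes with any value. For *tcer-1(glm27)* these were 847 and 334 (30.4% and 24.3% of all genes), and for *tcer-1(tm1452)* set against *tcer-1(glm27)* 1019 and 80 (27.3% and 20.2%).

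Most of the increase was in members that belong to no other 22G class. Of the 1022 tested members in neither the CSR nor the WAGO class, 819 were called higher in *tcer-1(tm1452)* mutants and 717 in *tcer-1(glm27)*, with median log2 fold changes of 3.81 and 2.03. Of the 291 that are also CSR class genes, 3 were called higher in *tcer-1(tm1452)* mutants and 1 in *tcer-1(glm27)*, and the medians were -0.33 and -0.36. The 66 tested members of the WAGO class lay between, with 30 and 16 called higher and medians of 0.86 and 0.37. The genes of neither class held 91.7 to 92.3% of the 26G-RNAs of the class in *tcer-1(tm1452)*, 89.3 to 89.7% in *tcer-1(glm27)* and 88.1 to 89.0% in wildtype, so the make-up of the 26G-RNAs by class changed little beside their amount.

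**Figure D3:**
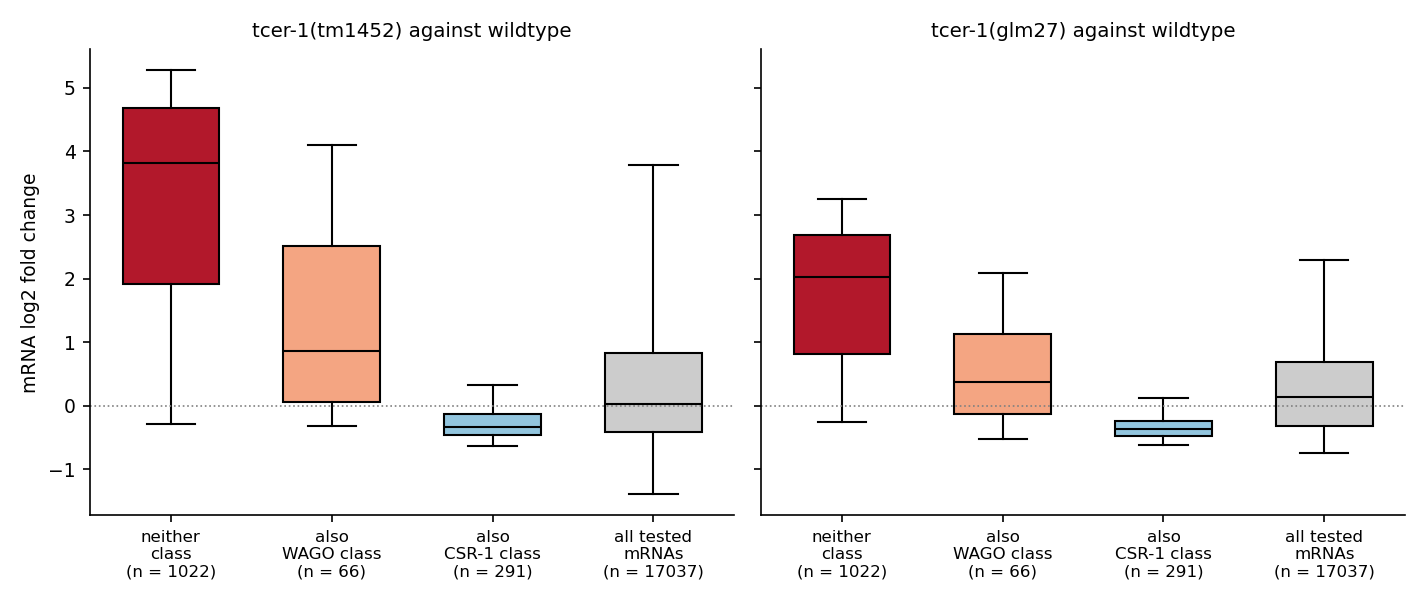
Log2 fold changes of member mRNAs against wildtype, for *tcer-1(tm1452)* and *tcer-1(glm27)*, by the other 22G class of the gene, beside all tested mRNAs; boxes give the quartiles and whiskers the 5th and 95th percentiles over genes. Members of neither class have medians of 3.81 and 2.03, and members of the CSR class have medians of -0.33 and -0.36.

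All 22 *msp* members were called higher in both alleles, with log2 fold changes of 4.65 to 6.05 in *tcer-1(tm1452)* mutants and 2.20 to 3.796 in *tcer-1(glm27)*. Their 26G-RNAs summed to 19.6 ± 2.55 RPM in *tcer-1(tm1452)*, 3.96 ± 0.92 RPM in *tcer-1(glm27)* and 0.74 ± 0.18 RPM in wildtype (SD, n = 3 each). These genes are near copies of each other. A median of 87.3% of their 26-base exon words were found elsewhere in the genome, so values of single *msp* genes are uncertain. All 9 *nspd* members and all 3 *spch* members were likewise called higher in both alleles. All 11 *ssp* members were called higher in *tcer-1(tm1452)* mutants and 10 in *tcer-1(glm27)*, and of the 19 *spe* members 14 and 11 were.

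Some families other than the sperm gene families named above went the same way. Whether their members are expressed in sperm was not tested. The 9 *irld* members, genes with the ligand-binding domain of insulin and EGF receptors, were called higher in both alleles, with median log2 fold changes of 3.70 in *tcer-1(tm1452)* mutants and 1.94 in *tcer-1(glm27)*. The 5 *ttbk* members, which encode relatives of tau tubulin kinase, were called higher in both, with medians of 5.01 and 2.83. None of the *rpn*, *rpt*, *pas* or *pbs* members was called in either allele, and the *rpn* medians were -0.37 and -0.41. Those 9 *rpn* genes nevertheless had 2.77 ± 0.55 RPM of 26G-RNAs in *tcer-1(tm1452)* mutants and 0.553 ± 0.442 RPM in *tcer-1(glm27)*, against 0.147 ± 0.071 RPM in wildtype.

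The largest increases shared by both alleles, ranked by the smaller change, were in *ssp-31*, K07F5.6, R13H9.6, C34F11.2 and W09D6.4. *ssp-31* mRNA was at 68.0, 63.7 and 101 normalized counts in *tcer-1(tm1452)* mutants and 22.1, 23.6 and 25.4 in *tcer-1(glm27)*, against 0.854, 0 and 0 in wildtype. K07F5.6 mRNA was at 64.6, 56.4 and 56.6 in *tcer-1(tm1452)* mutants and 17.1, 20.6 and 18.7 in *tcer-1(glm27)*, and was listed at 0 in all 3 wildtype libraries. Both were thus nearly or wholly undetected in wildtype, and no fold is given for K07F5.6. For R13H9.6 and W09D6.4, 97.7% and 44.2% of the 26-base exon words occur elsewhere in the genome, and their values may include reads of copies.

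The Argonautes that carry these 26G-RNAs, *alg-3* and *alg-4*, are themselves members. *alg-3* mRNA was at 549, 609 and 604 normalized counts in *tcer-1(tm1452)* mutants and 144, 145 and 130.5 in *tcer-1(glm27)*, against 19.6, 12.4 and 28.7 in wildtype. *alg-4* mRNA was at 628, 719 and 701 in *tcer-1(tm1452)* mutants and 136, 132 and 116 in *tcer-1(glm27)*, against 28.2, 25.9 and 18.1 in wildtype. Neither gene overlapped between genotypes, and the log2 fold changes were 4.87 ± 0.21 and 2.81 ± 0.21 for *alg-3* and 4.79 ± 0.15 and 2.38 ± 0.15 for *alg-4*, in *tcer-1(tm1452)* and *tcer-1(glm27)* in this order (SE, limma adjusted p at most 6.78e-08). The ERGO-1 class Argonaute *ergo-1* fell by 0.46 and 0.50 on the log2 scale, below the 2-fold limit of a call.

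The enzymes that make 26G-RNAs did not share the increase. Of the 10 genes listed for 26G-RNA production (*rrf-3*, the *eri* genes, *dcr-1* and partners), none was called, and 9 in *tcer-1(tm1452)* mutants and 10 in *tcer-1(glm27)* had lower mRNA at an adjusted p under 0.05 but under 2-fold, with median log2 fold changes of -0.28 and -0.39. *rrf-3*, the polymerase, was at 3091, 3199.8 and 3344 normalized counts in *tcer-1(tm1452)* mutants and 3146, 2967 and 2841 in *tcer-1(glm27)*, against 4107, 4177 and 4288 in wildtype. Among the 6 listed genes of the 22G-RNA step in the mRNA table, *wago-10* was called higher in both alleles (log2 fold changes of 4.79 and 3.23) and the other 5 were lower at less than 2-fold. *wago-10*, *csr-1*, *wago-1* and *hrde-1* are members of the class; *csr-1* had log2 fold changes of -0.29 and -0.47 and *hrde-1*, a nuclear Argonaute, of -0.36 and -0.59.

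Genes that direct germ cells to become sperm were less uniform than the sperm proteins. Of 14 tested genes of sperm structure, 13 were called higher in both alleles. The list median was 4.78 in *tcer-1(tm1452)* mutants and 2.81 in *tcer-1(glm27)*. The exon words of *msd-1* all occur elsewhere in the genome. This gene was listed at 574, 0 and 0 in *tcer-1(tm1452)*, at 61.7, 86.3 and 67.2 in *tcer-1(glm27)* and at 4.28, 9.45 and 6.93 in wildtype. Of 8 regulators of sperm fate, 1 was called against wildtype, *fog-3*, in *tcer-1(tm1452)* only. At an adjusted p under 0.05 and any size, 3 were higher and 5 lower in *tcer-1(tm1452)*, and 0 were higher and 6 lower in *tcer-1(glm27)*. Their median log2 fold changes were -0.39 and -0.66. *fog-3* was at 174, 178 and 158 normalized counts in *tcer-1(tm1452)* mutants and 20.8, 14.4 and 25.2 in *tcer-1(glm27)*, against 30.9, 29.3 and 36.4 in wildtype, and the alleles differed by 3.05 ± 0.21 on the log2 scale (SE, limma adjusted p = 3.60e-08). *spe-44*, a transcription factor of the sperm programme and a member, was lower, at 338, 335 and 395 in *tcer-1(tm1452)* mutants and 322, 272 and 299 in *tcer-1(glm27)* against 504, 563 and 555 in wildtype.

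Markers of other cells moved too, and their part in the results on the class was not tested. Of 8 body wall muscle genes, 8 were called higher in *tcer-1(tm1452)* mutants and 0 in *tcer-1(glm27)*, with sums of 149235 to 171032 normalized counts in *tcer-1(tm1452)*, 62128 to 67789.7 in *tcer-1(glm27)* and 42549 to 55137 in wildtype. Of 14 oocyte genes none was called, but 12 were lower in each allele at an adjusted p under 0.05, with median log2 fold changes of -0.70 and -0.65 and sums of 249458 to 274379 in *tcer-1(tm1452)*, 263647 to 286142 in *tcer-1(glm27)* and 389706 to 412878 in wildtype. Among the muscle genes 7 were higher in *tcer-1(glm27)* at an adjusted p under 0.05, below the 2-fold limit. All 6 yolk genes were lower in *tcer-1(tm1452)* at an adjusted p under 0.05, with a median log2 fold change of -0.73 and 1 of them called, and none was called in *tcer-1(glm27)*. Their sums were 899765 to 911126 in *tcer-1(tm1452)*, 1472510 to 1614440 in *tcer-1(glm27)* and 1300280 to 1590290 in wildtype. Of 10 moulting genes 2 were higher and 3 lower in *tcer-1(tm1452)* and 1 was higher in *tcer-1(glm27)*. Of 7 intestine genes 1 was higher and 1 lower in *tcer-1(tm1452)* and 1 was higher in *tcer-1(glm27)*, and of 7 neuron genes 1 was higher, in *tcer-1(tm1452)*. These last are calls. At an adjusted p under 0.05 and any size, 6 moulting genes were higher and 3 lower in *tcer-1(tm1452)*, and 7 and 0 in *tcer-1(glm27)*. For intestine genes these were 4 and 1, then 6 and 0. For neuron genes they were 5 and 2, then 3 and 1. None of these markers was at 0 in every library.

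The summed 22G-RNAs of the class had no direction that held under every scaling. They summed to 9504, 9627 and 10801 RPM in *tcer-1(tm1452)*, 9400.4, 9634 and 9141 RPM in *tcer-1(glm27)* and 9978, 10170 and 10071 RPM in wildtype, so every *tcer-1(glm27)* library was below wildtype, while the first and second *tcer-1(tm1452)* libraries were below every wildtype library and the third was above. The ratios of the means to wildtype were 0.990, or 0.950 without the third *tcer-1(tm1452)* library, and 0.932. The values 0.990 and 0.932 turn to 1.22 and 1.19 with libraries scaled to equal upper quartiles and to 0.762 and 0.707 with libraries scaled to equal miRNA totals, so no direction is given for the sum. The ratio of 22G-RNA to 26G-RNA was 6.83 in *tcer-1(tm1452)* mutants and 32.6 in *tcer-1(glm27)*, against 180 in wildtype. The 852 members whose mRNA was called higher in *tcer-1(tm1452)* held only 12.2 to 12.4% of the 22G-RNA of the class in wildtype and 81.7 to 83.1% of the 26G-RNA. In this set, which was chosen by its mRNA, the 22G-RNAs summed to 2161, 2209 and 2419 RPM in *tcer-1(tm1452)* mutants and 1886, 1911 and 1897 RPM in *tcer-1(glm27)*, against 1229, 1240.2 and 1244 RPM in wildtype, with no overlap between the genotypes.

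Of the 537 members whose 22G-RNAs passed the filter, 65 were called higher and 31 lower in *tcer-1(tm1452)*, and 33 higher and 26 lower in *tcer-1(glm27)*, against the shares of all small RNA features given above. The median log2 fold changes were -0.19 and -0.33, where all features tested had -0.32 in both. Under equal upper quartiles the calls became 77 higher and 21 lower in *tcer-1(tm1452)* mutants and 43 and 10 in *tcer-1(glm27)*, and under equal miRNA totals 58 and 71, and 25 and 101, so the balance of directions depends on the scaling. 25 of the 65 higher loci passed the filter only through *tcer-1(tm1452)*, and among the 428 loci whose mean reached 2 RPM in every genotype 15 were called higher and 21 lower. No share of all features was computed under this limit. 20 loci were called higher in both alleles and 16 lower in both, and WBGene00007721 was called lower in *tcer-1(tm1452)* and higher in *tcer-1(glm27)*. The shares of all features called in both alleles were not computed. They cannot exceed those of *tcer-1(glm27)*, 2.2% higher and 8.65% lower. By class, 59 of the 65 higher loci were in neither the CSR nor the WAGO class and 6 in the WAGO class, while of 241 tested CSR class members none was higher and 1 was lower. By library, in RPM and without a filter, 784 of the 1399 members were higher in all 3 *tcer-1(tm1452)* libraries than in any wildtype library and 293 lower. The shares of all small RNA features were 14.6% and 26.2%. For *tcer-1(glm27)* these were 363 and 406 (9.3% and 29.4% of all features). Between the alleles, 815 were higher in *tcer-1(tm1452)* and 88 lower (19.2% and 8.52%).

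B0261.6 and Y76B12C.4 were among the 5 largest 22G-RNA increases shared by both alleles. B0261.6 had 33.3, 37.3 and 42.05 RPM of 22G-RNA in *tcer-1(tm1452)* mutants and 74.8, 77.2 and 77.5 RPM in *tcer-1(glm27)*, against 1.65, 1 and 1.24 RPM in wildtype, so it was higher in *tcer-1(glm27)* than in *tcer-1(tm1452)*, the reverse of its mRNA. Its mRNA was at 293, 275 and 285 normalized counts in *tcer-1(tm1452)* mutants and 64.2, 58.1 and 68.5 in *tcer-1(glm27)*, against 10.5, 12.5 and 6.80 in wildtype. Y76B12C.4 had 46.0, 46.0 and 46.3 RPM of 22G-RNA in *tcer-1(tm1452)* mutants and 42.9, 41.2 and 47.7 RPM in *tcer-1(glm27)*, against 1.88, 2.37 and 1.73 RPM in wildtype. The alleles overlapped at this locus and differed by 0.07 ± 0.09 on the log2 scale (SE). The other loci of the 5 largest shared increases were Y43C5A.4, Y47G6A.13 and F13H8.8, with log2 fold changes of 2.26 to 2.50 in *tcer-1(tm1452)* mutants and 3.16 to 4.50 in *tcer-1(glm27)*.

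Among the loci with fewer 22G-RNAs, ZK973.8 had 16.1, 15.3 and 17.9 RPM in *tcer-1(tm1452)* mutants and 16.8, 16.4 and 17.1 RPM in *tcer-1(glm27)*, against 97.4, 107 and 98.5 RPM in wildtype. T05G5.4 fell in both its 22G-RNA and its mRNA: its 22G-RNA was at 3.36, 2.56 and 1.25 RPM in *tcer-1(tm1452)* mutants and 2.09, 1.54 and 1.29 RPM in *tcer-1(glm27)*, against 23.3, 20.7 and 22.1 RPM in wildtype. C06A1.3 went opposite ways, with 1.75, 1.97 and 2.05 RPM of 22G-RNA in *tcer-1(tm1452)* mutants and 1.90, 1.79 and 1.72 RPM in *tcer-1(glm27)* against 8.06, 7.41 and 7.47 RPM in wildtype. Its mRNA was at 203, 206 and 246 normalized counts in *tcer-1(tm1452)* mutants and 45.5, 59.2 and 53.4 in *tcer-1(glm27)*, against 12.4, 20.9 and 13.6 in wildtype. D1014.2 and *smim-14* were the other loci of the 5 largest shared decreases, at 5.56 to 6.22 and 12.3 to 14.1 RPM in wildtype.

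22G-RNA and mRNA calls were set side by side for the 535 members tested in both tables. In *tcer-1(tm1452)*, of 131 members with higher mRNA 57 had higher 22G-RNA, 12 had lower and 62 were not called, and of 400 members without an mRNA call 7 had higher and 17 lower 22G-RNA. In *tcer-1(glm27)*, of 91 members with higher mRNA 19 had higher 22G-RNA, 6 had lower and 66 were not called, and of the members without an mRNA call 13 had higher and 18 lower 22G-RNA and 411 were not called. Most of the 852 members with higher mRNA had too little 22G-RNA to pass the filter. As a description over members, which share libraries and are not replicates, the levels of 22G-RNA and mRNA had Spearman correlations of 0.52 in *tcer-1(tm1452)*, 0.61 in *tcer-1(glm27)* and 0.72 in wildtype (n = 1399), and 0.21, 0.22 and 0.38 within the 852 members with higher mRNA. In the same order of genotypes, the levels of 26G-RNA and mRNA had -0.32, -0.27 and -0.22 over all members, and 0.23, 0.20 and 0.11 within the 852. The levels of 26G-RNA and 22G-RNA had -0.10, -0.089 and -0.12 over all members, and 0.40, 0.37 and 0.17 within the 852. Gene length was not accounted for. In wildtype the median locus had 0.0233 RPM of 26G-RNA, and 422 to 496 loci per library were above 0. The wildtype correlations with 26G-RNA thus rest on few reads and cannot be set against those of the mutants.

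**Figure D4:**
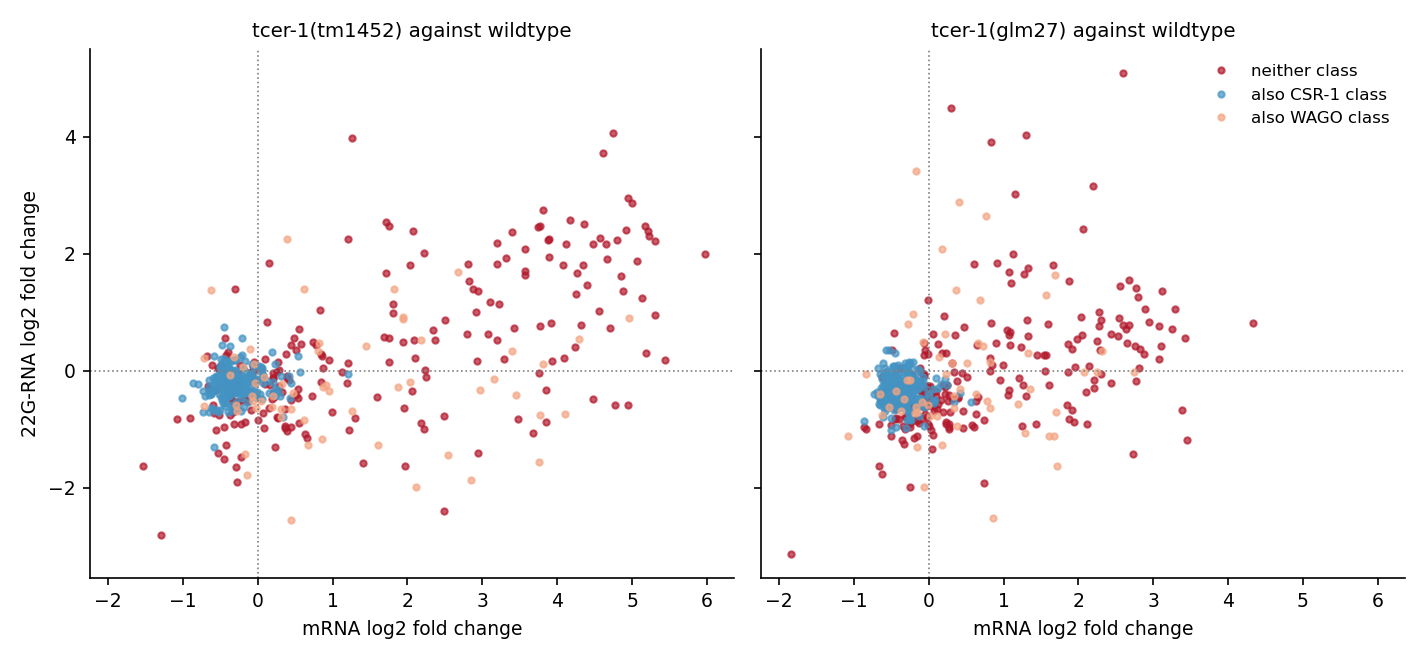
Log2 fold change of 22G-RNA (vertical axis) against log2 fold change of mRNA (horizontal axis) for the members tested in both tables, in *tcer-1(tm1452)* mutants and in *tcer-1(glm27)* against wildtype, each point 1 gene. Of the 535 genes, 57 were called higher in both measures in *tcer-1(tm1452)* mutants and 19 in *tcer-1(glm27)*, and points at the lower right such as C06A1.3 have higher mRNA and lower 22G-RNA.

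The alleles were also compared with each other, and 773 of 1380 tested mRNAs and 75 of 537 tested 22G-RNA loci were called. All 45 tested 26G-RNA loci were called higher in *tcer-1(tm1452)* mutants than in *tcer-1(glm27)*, where 4.38% of all features were called higher, and none lower (2.86% of all features). Since 40 of the 45 passed the filter only through *tcer-1(tm1452)*, this count is a description. 54 of the 537 tested 22G-RNA loci were called higher and 21 lower. 25 of the 54 passed the filter only through *tcer-1(tm1452)*, and among the 428 loci whose mean reached 2 RPM in every genotype 15 were higher and 14 lower. No share of all features was computed for loci limited in this way. Of the mRNAs, 768 were called higher in *tcer-1(tm1452)* mutants than in *tcer-1(glm27)* and 5 lower, against 11.4% and 8.08% of all genes tested, with a median log2 fold change of 1.45 where all genes had 0.06. The largest differences in 26G-RNA were at C38C10.3, C05C12.5 and K11C4.1. C05C12.5 had 9.87, 9.23 and 10.2 RPM in *tcer-1(tm1452)* mutants and 1.08, 1.09 and 1.42 RPM in *tcer-1(glm27)*, and C38C10.3 had 16.1, 16.6 and 33.9 RPM against 2.32, 3.10 and 2.03 RPM, with its highest value in the third *tcer-1(tm1452)* library.

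At some loci the 22G-RNAs of the alleles went opposite ways from wildtype or differed several-fold. WBGene00007721 had 8.50, 8.85 and 10.1 RPM in *tcer-1(tm1452)* mutants and 89.7, 87.5 and 85.3 RPM in *tcer-1(glm27)*, against 24.1, 22.9 and 25.4 RPM in wildtype. Of its 26-base exon words, 86.8% occur elsewhere in the genome. F42G4.2 had 15.7, 17.0 and 16.4 RPM in *tcer-1(tm1452)* mutants and 140.4, 143 and 139 RPM in *tcer-1(glm27)*, against 7.11, 8.70 and 7.33 RPM in wildtype. Between the alleles its mRNA had the opposite order, and wildtype was lowest in both measures, with 124, 121 and 137 normalized counts in *tcer-1(tm1452)* mutants, 45.5, 35.9 and 42.2 in *tcer-1(glm27)* and 12.4, 20.9 and 15.9 in wildtype. C55C3.3 had 10.5, 9.85 and 13.1 RPM of 22G-RNA in *tcer-1(tm1452)* mutants and 93.0, 89.5 and 95.5 RPM in *tcer-1(glm27)*, against 45.8, 47.2 and 47.9 RPM in wildtype. C01G10.1 was the reverse, with 29.4, 29.7 and 33.9 RPM in *tcer-1(tm1452)*, 5.18, 5.40 and 5.88 RPM in *tcer-1(glm27)* and 1.74, 1.32 and 1.24 RPM in wildtype.

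The upstream word ACGTG was unevenly spread within the class. It was found in 73.2% of the windows of the 852 members with higher mRNA in *tcer-1(tm1452)* and in 36.5% of those of 540 other members, against 23.7% of all protein-coding genes. GATAA was found in 60.0%, 53.5% and 52.2% of the same sets. Of the 22 *msp* windows, 72.7% held ACGTG and 90.9% held GATAA. The mean GC content was 31.2% in the windows of members with higher mRNA, 32.9% in those of the other members and 33.8% in all windows. By position, 255 of the 345 members on chromosome IV and 123 of the 213 on chromosome V had higher mRNA in *tcer-1(tm1452)*, and the single member on the X chromosome did not.

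**Figure D5:**
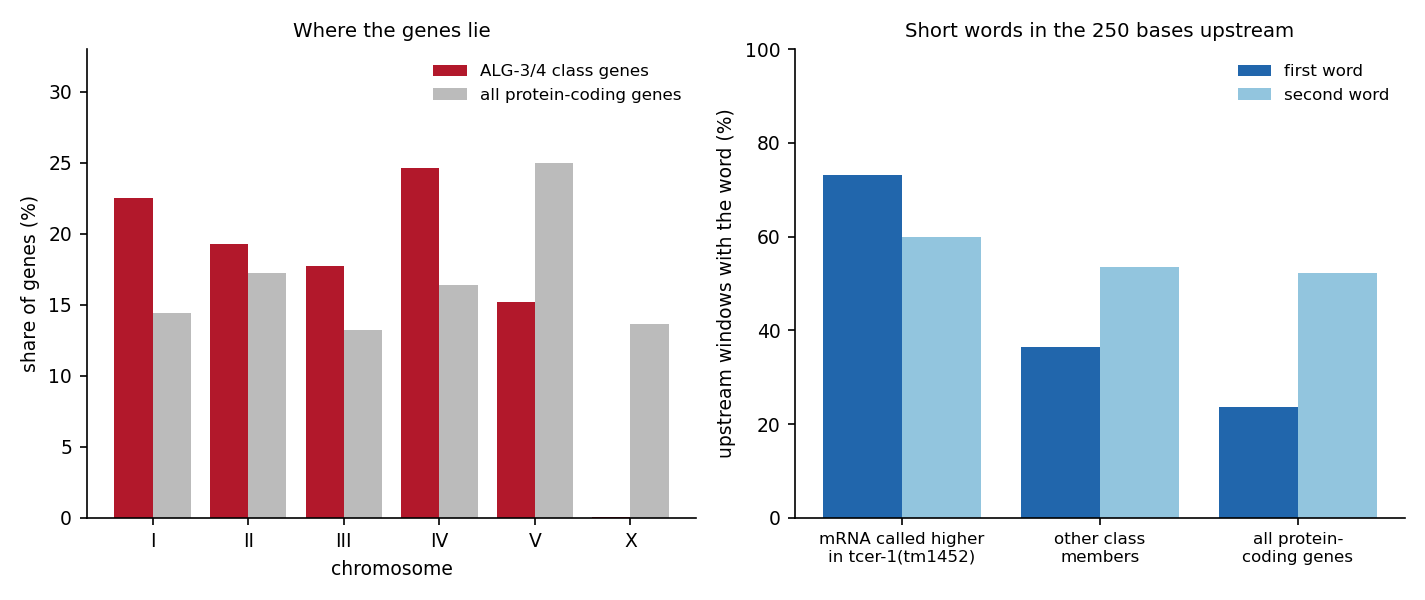
Left, the share in percent of members and of all protein-coding genes that lies on each nuclear chromosome. Right, the share in percent of upstream windows that holds ACGTG (the first word) or GATAA (the second word) on either strand, for members with higher mRNA in *tcer-1(tm1452)*, other members and all protein-coding genes; ACGTG stands at 73.2%, 36.5% and 23.7%.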

How the data were processed

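Per the labels, small RNAs of 16 to 30 nt and rRNA-depleted RNA came from the same strains. The authors deposited RPM values of small RNA features made with tinyRNA at default settings (22G-RNAs are antisense reads of 21 to 23 nt with a 5′ G; the length rule of 26G-RNAs is not given in the sources used here), split between features where reads map to several. For mRNA the authors deposited normalized counts, a signal made with fastp, RSEM, STAR and the size factors of DESeq2, on WormBase WS279. The planned comparison had assumed size-factor scaling for both, and the small RNA values showed RPM. Whole reads could not be recovered for features that share reads, so no count test was run, and the read estimates come from the steps between low values.

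Values were fitted with limma 3.58.1 in R 4.3.3 (mean-variance trend) on log2(value + 1), for features whose mean over the 9 libraries was 2 or more, 8073 in the small RNA table and 17037 in the mRNA table, with Benjamini-Hochberg adjustment over each table. The fit was tested on simulated data. P-values set a difference between groups against the spread between replicates. That spread was pooled over the 3 genotypes and drawn towards a trend over all tested features. The members and gene lists were chosen with earlier results of these data known. Genes were named by rule: 26G-RNA loci called in both alleles, the 5 highest 26G-RNA loci, the 5 largest changes shared by both alleles, the 3 largest allele differences without overlap in each direction, and the members of the lists. *tcer-1*, the 22G-RNA genes, gene families and upstream words were named after the values were seen. Alternatives were other pseudocounts and filters, 3 scalings, no trend, a replicate block and leaving out each library. Figures were drawn with matplotlib 3.10.9.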

Additional observations from a re-analysis of the deposited data

Results flagged for a closer look

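Results are given here where the alleles differed by limma's test of *tcer-1(tm1452)* against *tcer-1(glm27)*. In number of genes these were 45 26G-RNA loci, 54 22G-RNA loci and 768 mRNAs higher in *tcer-1(tm1452)*, and 21 22G-RNA loci and 5 mRNAs lower. 40 of the 45 and 25 of the 54 passed the filter on low values only through *tcer-1(tm1452)*, so their counts are a description. For 26G-RNA, the log2 fold changes of *tcer-1(tm1452)* against *tcer-1(glm27)* were 2.66 at C38C10.3, 2.30 at C05C12.5 and 2.28 at K11C4.1. For 22G-RNA they were 2.30 at C01G10.1, 2.24 at ZC190.8 and 2.08 at Y38F2AR.10, and -3.13 at WBGene00007721, -3.03 at F42G4.2 and -2.96 at C55C3.3.

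For mRNA the same difference was 3.84 at C24H11.2, 3.39 at *msp-33* and 3.33 at Y59E9AR.2. Of the 26-base exon words of these genes, 97.7%, 86.9% and 100% occur elsewhere in the genome. Y59E9AR.2 was at 21.8, 0 and 0 normalized counts in *tcer-1(glm27)*, so its difference rests on unsteady values. In the other direction it was -3.25 at F46E10.2, -1.95 at F15B10.3 and -1.13 at C24B9.3. F46E10.2 was at 22.1, 12.2 and 7.75 normalized counts in *tcer-1(tm1452)* and 121, 134 and 139 in *tcer-1(glm27)*, against 75.03, 56.5 and 86.9 in wildtype, and its 26G-RNAs were listed at 0 in every library.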

How the results depend on the processing

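The counts at the low 26G-RNA and 22G-RNA levels depended on the pseudocount and the filter. Counts of higher mRNAs moved by less than 1.5 times, at most to 589 in place of 768 between the alleles (pseudocount 0.1, filter 0.2) and to 613 in place of 734 in *tcer-1(glm27)* (pseudocount 5). With a pseudocount of 0.1 and a filter of 0.2, the 26G-RNA loci called were 657 higher and 1 lower in *tcer-1(tm1452)*, 363 higher in *tcer-1(glm27)*, and 598 higher and 1 lower between the alleles, and the 22G-RNA loci were 611 higher and 57 lower, 210 higher and 81 lower, and 458 higher between the alleles. With no filter, 26G-RNA calls were 382 higher in *tcer-1(tm1452)* and 243 between the alleles, and 22G-RNA calls 256 and 125. With a pseudocount of 5, 26G-RNA calls were 0 in *tcer-1(glm27)* and 24 between the alleles, 22G-RNA calls were 33 higher and 15 lower, 19 and 6, and 11 and 10, and 1 mRNA was lower in *tcer-1(glm27)*. With equal miRNA totals, 26G-RNA calls in *tcer-1(glm27)* were 5, and lower 22G-RNA calls were 71 in *tcer-1(tm1452)* mutants and 101 in *tcer-1(glm27)*; with equal upper quartiles or by median of ratios the last was 10, and by upper quartiles 2 mRNAs were lower in *tcer-1(glm27)*. The mean log2 scaling factor of the small RNA libraries differed from that of wildtype in both alleles. The differences were 0.30, 0.31 and -0.39 (upper quartiles, median of ratios, miRNA totals) in *tcer-1(tm1452)* and 0.36, 0.38 and -0.40 in *tcer-1(glm27)*. For the mRNA libraries they were at most 0.08. Class sums under other scalings and without single libraries were added after the values were seen: the 26G-RNA ratio to wildtype was 32.2 in *tcer-1(tm1452)* by either upper quartiles or median of ratios and 20.1 with equal miRNA totals, and 6.58, 6.69 and 3.89 in *tcer-1(glm27)*, and the 22G-RNA ratio was 1.22, 1.23 and 0.762 in *tcer-1(tm1452)* mutants and 1.19, 1.21 and 0.707 in *tcer-1(glm27)*. The cause of these moves was not tested beyond the setting itself.

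Leaving out each library in turn gave 25 to 59 26G-RNA loci higher in *tcer-1(tm1452)* than in wildtype and also 25 to 59 than in *tcer-1(glm27)*, the 25 in both without the third *tcer-1(tm1452)* library, when all 25 that passed the filter were called, and 12 to 17 in *tcer-1(glm27)*. 22G-RNA calls were 53 to 70 higher and 30 to 33 lower in *tcer-1(tm1452)*, 32 to 37 and 26 to 30 in *tcer-1(glm27)*, and 40 to 59 and 20 to 23 between the alleles. mRNA calls were 839 to 854 higher and 5 to 7 lower, 703 to 729 and 1 to 4, and 706 to 775 and 5 to 6; the 1 was without wildtype replicate 2, and without *tcer-1(glm27)* replicate 3 there were 2. The ratios of the 26G-RNA sum were 23.6 to 28.5, 4.84 to 5.62 and 4.59 to 5.43. Replicate numbers showed no steady pairing. Correlations of same-numbered deviations ran between -0.52 and 0.38 for small RNA and between -0.04 and 0.08 for mRNA. Differently numbered small RNA libraries of the alleles reached 0.56, which the replicate block does not model. With the replicate block the 26G-RNA calls were the same 45, 14 and 45 loci, and mRNA calls were 859 in place of 858 in *tcer-1(tm1452)*. Of 4103 values of named genes under the alternatives, 3998 kept direction and call, 105 lost the call and 0 reversed.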
